A study of Mus musculus with 2 samples.

Results

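*Mcpt8*, *Prss34* and *Cd200r3*, 3 of the 11691 genes in a table of single-cell counts, were chosen because all 3 are known from mouse basophils, and their levels were followed across every cell of both libraries of the study. The study cultured tissues of C57/BL6 mouse concepti at embryonic day 8.5, with 5 to 7 pairs of somites, and asked which tissue gives rise to blood stem cells. Embryo and yolk sac were separated and grown as explants (Em-Ex and YS-Ex) at the border of air and medium for 10 days with SCF, IL-3 and FLT3 ligand, each at 100 ng/ml. From each culture, cells positive for CD31, CD45 and c-Kit and negative for CD41 were sorted and captured in droplets as 1 library, so that source tissue and library cannot be told apart, and cells from several concepti are pooled without a label that separates them. The labels name no altered allele and no other treatment for either library, and the libraries were sequenced together.

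Basophils and mast cells are granulocytes that bind IgE through the same high-affinity receptor and store histamine and proteases in granules. In mice, basophils are known for the proteases encoded by *Mcpt8* and *Prss34*, for the integrin subunit encoded by *Itga2* and for making *Il4*, and they carry little surface c-Kit, whereas mast cells carry c-Kit and hold chymases and tryptases. The carboxypeptidase encoded by *Cpa3* is abundant in mast cell granules, but *Cpa3* is also transcribed by basophils and is counted here among the genes shared by both, so that its level alone does not separate them. *Cd200r3* encodes an activating receptor of the CD200 receptor family, found on both cell types, that signals through the adaptor encoded by *Tyrobp*. IL-3 drives the growth of both cell types and SCF that of mast cells, and the sort for c-Kit favours mast cells over mature basophils.

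After the cell limits of the study, 3071 of 3504 Em-Ex barcodes and 2087 of 3037 YS-Ex barcodes remained, with medians of 12341 and 11729 unique molecular identifiers (UMIs, the counted transcript molecules) per cell. Of the barcode sequences, 35 occurred in both libraries. Levels are UMIs of a gene per 1000000 UMIs (CPM) summed over cells. With 1 library per tissue there was no replicate and no test, and all intervals given are 95% intervals that cover counting error only. The table holds a gene in a library only where at least 30 barcodes of that library carried it, so a gene listed at 0 may have been below that limit.

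UMIs of *Kit*, *Cma1* and *Cpa3* were found in most cells of both libraries, so that their presence alone hardly separates kinds of cell. Of the cells with UMIs of at least 2 of the 3 genes, *Kit*, *Cma1* and *Cpa3* were found together in 96.4% (95.2 to 97.5) of 1091 in Em-Ex and in 99.1% of 441 in YS-Ex, where all cells of these libraries gave 87.7% and 98.1% and cells under 2000 CPM of *Cpa3* gave 59.9% and 65.2%. *Itga2*, a basophil marker, was found in 1.19% (0.636 to 2.03) of these cells in Em-Ex, against 1.21% of all its cells, and in 10.9% (8.13 to 14.2) in YS-Ex, against 8.48%. *Cebpa*, a transcription factor of basophil progenitors, was found in 1.01% (0.504 to 1.80) of them in Em-Ex, against 4.82% of all its cells, and was listed at 0 in YS-Ex. Of the 148 Em-Ex cells with *Cebpa*, 132 were under 2000 CPM of *Cpa3*. *Il4* was found in 81.2% of the Em-Ex cells with at least 2 of the 3 genes, against 66.2% of all cells, and in 88.9% in YS-Ex, against 82.7%. The 3 genes are therefore called by their symbols below and the cells by the genes they carry.

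The 3 genes lie on different chromosomes, beside paralogs (GRCm38.p6, positions from RefSeq and exons from GENCODE). *Mcpt8* occupies chr14:56082163-56085499 on the minus strand, with 5 exons, in the cluster of mast cell proteases and granzymes, and a miRNA gene, *Mir6949*, lies within it. *Prss34* occupies chr17:25298394-25300168 on the plus strand, with 5 exons, beside the tryptase genes. *Cd200r3* occupies chr16:44943596-45058365 on the plus strand, with 5 to 6 exons in its transcripts, beside *Cd200r1* and *Cd200r4*. The 250 bases before each start site are shown because the 3 genes differed in how widely they were found among cells that shared high *Cpa3*, and *Cpa3* (chr3:20215616-20242209, minus strand, 11 exons) is shown beside them. Sequences are from RefSeq, whose start site for *Mcpt8*, *Cd200r3* and *Cpa3* is that of 1 transcript and lies apart from the end of the gene's span. The stretch shown for *Mcpt8* thus lies wholly within the span given above, and the stretches for *Cd200r3* and *Cpa3* in part. They are read 5′ to 3′ on the strand of the gene, and capitals mark AGATAA, a form of the motif bound by GATA factors.
Mcpt8 (chr14:56085198-56085447, strand minus): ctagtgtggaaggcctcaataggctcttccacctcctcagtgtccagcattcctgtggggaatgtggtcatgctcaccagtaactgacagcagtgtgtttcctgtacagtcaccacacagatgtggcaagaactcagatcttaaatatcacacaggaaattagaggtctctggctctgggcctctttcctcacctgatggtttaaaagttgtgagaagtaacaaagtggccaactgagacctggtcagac
Prss34 (chr17:25298144-25298393, strand plus): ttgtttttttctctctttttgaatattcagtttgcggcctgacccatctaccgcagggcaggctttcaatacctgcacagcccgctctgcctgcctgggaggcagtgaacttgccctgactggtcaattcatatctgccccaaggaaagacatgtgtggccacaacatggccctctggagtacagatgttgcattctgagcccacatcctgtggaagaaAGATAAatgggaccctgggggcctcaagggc
Cd200r3 (chr16:44943428-44943677, strand plus): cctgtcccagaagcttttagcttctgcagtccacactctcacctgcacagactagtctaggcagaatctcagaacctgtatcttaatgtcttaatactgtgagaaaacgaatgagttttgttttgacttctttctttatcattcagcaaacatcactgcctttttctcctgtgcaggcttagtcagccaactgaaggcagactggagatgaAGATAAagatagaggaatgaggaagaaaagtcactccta
Cpa3 (chr3:20242182-20242431, strand minus): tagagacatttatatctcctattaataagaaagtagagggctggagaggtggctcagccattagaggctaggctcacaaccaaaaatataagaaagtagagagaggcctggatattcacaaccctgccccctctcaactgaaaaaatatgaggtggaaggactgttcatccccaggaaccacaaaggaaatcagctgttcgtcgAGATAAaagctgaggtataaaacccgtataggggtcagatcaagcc

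AGATAA was searched on both strands. It occurred at -31 from the start site of *Prss34*, at -39 of *Cd200r3* and at -46 of *Cpa3*, and not within these 250 bases of *Mcpt8*. Of 32536 mouse promoters of the same length, 9.97% held it. The E-box CANNTG, which reads alike on both strands, occurred 3 times before *Mcpt8* and 2 times before each of the other genes, and 66.2% of all promoters held at least 1. These are matches of letters, and no binding was measured.

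*Mcpt8*, which encodes a granule serine protease, stood at 94.6 CPM (91.7 to 97.6) in Em-Ex, against 36.0 CPM (33.7 to 38.3) for YS-Ex. The level was 2.63-fold (2.45 to 2.83) higher in Em-Ex. Of the 10725 genes found in both libraries, 5.23% were at least 2-fold higher in Em-Ex, with a median log2 ratio of -0.05. UMIs of *Mcpt8* were found in 1025 cells (33.4%, 31.7 to 35.1) of Em-Ex and in 354 cells (17.0%, 15.4 to 18.6) of YS-Ex. When each cell was thinned to 3000 UMIs the shares came to 16.5% and 6.37%. Em-Ex was thus higher by level and by share of cells, with intervals that did not overlap.

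Among the cells that held it, *Mcpt8* was unevenly spread. In Em-Ex the level per positive cell ran from 29.2 CPM through a median of 167 CPM to 3463.2 CPM, and 40.1% of the positive cells had 1 UMI. In YS-Ex it ran from 29.4 CPM through a median of 107 CPM to 3310.8 CPM, and 57.6% had 1 UMI. The 1% of cells with the most *Mcpt8* UMIs held 22.4% of them in Em-Ex (31 cells) and 38.5% in YS-Ex (21 cells). Ranked by this share among genes with totals within 2-fold, *Mcpt8* was at place 19 of 1748 in Em-Ex, where the median gene held 6.39%, and at place 18 of 3390 in YS-Ex, where the median gene held 8.75%. A few YS-Ex cells carried much of that library's *Mcpt8*. Without the 10 cells of each library richest in it, a choice made after seeing the data, the levels were 84.8 CPM and 25.7 CPM, in that order, and the ratio was 3.30 (3.04 to 3.59).

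*Prss34*, which encodes a tryptase-like granule protease, stood at 11.02 CPM (10.04 to 12.1) in Em-Ex, against 20.1 CPM (18.4 to 21.8) for YS-Ex, a ratio of 0.55 (0.485 to 0.623). Of all genes, 10.3% were at least 2-fold lower in Em-Ex, and *Prss34* did not reach that fold. Its UMIs were found in 233 cells (7.59%, 6.68 to 8.58) of Em-Ex and 151 cells (7.24%, 6.16 to 8.43) of YS-Ex. The level was lower in Em-Ex, while the shares of cells had overlapping intervals. Thinned to 3000 UMIs, the shares were 2.34% and 2.59%.

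The *Prss34* transcripts were held by very few cells. Positive cells ran from 30.7 CPM through a median of 89.7 CPM to 1611.4 CPM in Em-Ex and from 35.0 CPM through a median of 99.1 CPM to 6185.6 CPM in YS-Ex. The richest 1% of cells held 45.6% of the *Prss34* UMIs in Em-Ex and 63.8% in YS-Ex, at place 66 of 3764 and 15 of 3885 genes with like totals. The richest YS-Ex cell alone had 57 *Prss34* UMIs among 9215. Without the 10 richest cells of each library, which held 28.4% of the *Prss34* UMIs in Em-Ex and 49.8% in YS-Ex, the levels were 7.92 and 10.1 CPM and the ratio was 0.782 (0.665 to 0.921). Part of the library difference in *Prss34* was therefore carried by those cells.

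*Cd200r3* was spread over most cells of both libraries. It stood at 308 CPM (303 to 314) in Em-Ex, against 304 CPM (298 to 311) for YS-Ex, a ratio of 1.01 (0.986 to 1.04). UMIs were found in 2446 cells (79.6%, 78.2 to 81.1) of Em-Ex and in 1862 cells (89.2%, 87.8 to 90.5) of YS-Ex, and in 56.9% and 59.5% of cells thinned to 3000 UMIs. In Em-Ex the positive cells ran from 29.1 CPM through a median of 402 CPM to 2826.8 CPM, and in YS-Ex from 29.4 CPM through 332 CPM to 1960.4 CPM. The richest 1% of cells held 4.77% of its UMIs in Em-Ex and 3.87% in YS-Ex, where the medians of genes with like totals were 4.65% and 4.58%. By this share *Cd200r3* was at place 286 of 624 in Em-Ex and at place 502 of 614 in YS-Ex. Over all cells its summed level thus differed between the libraries by less than the counting error, while the share of cells with a UMI was lower in Em-Ex, though with overlapping intervals (55.1 to 58.6 and 57.4 to 61.6) in thinned cells.

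**Figure D1:**
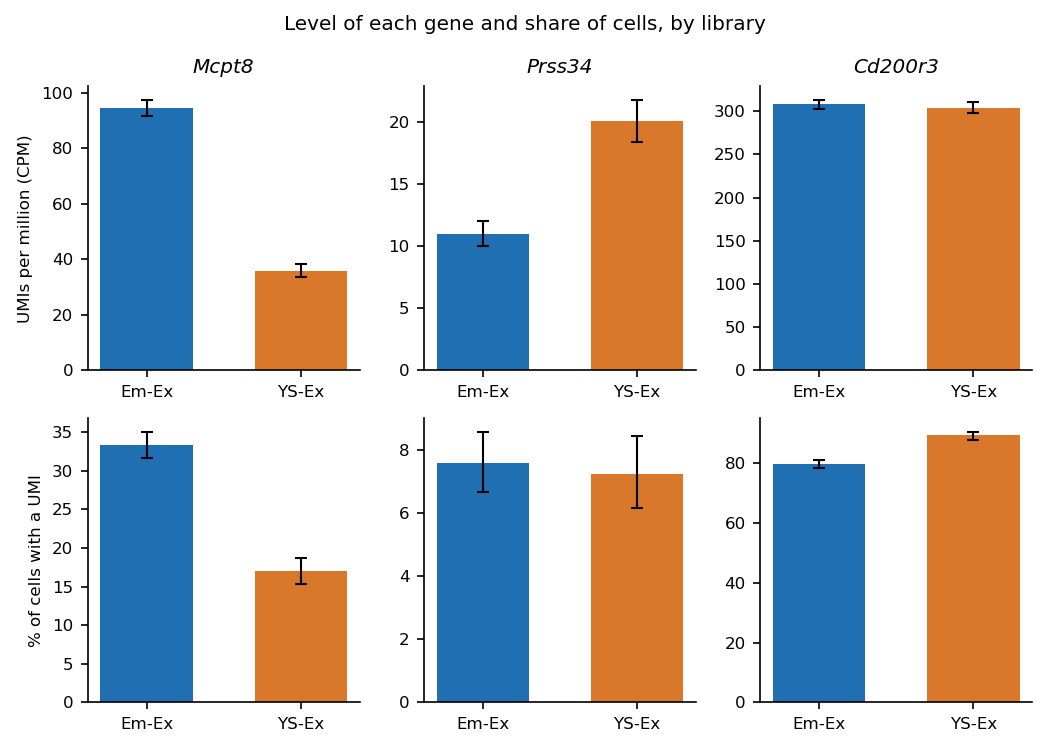
Bars give the level of each gene (upper panels, CPM) and the share of cells with at least 1 UMI (lower panels, %) in Em-Ex and YS-Ex, with 95% counting intervals and 1 library per bar. *Mcpt8* was higher in Em-Ex (94.6 against 36.0 CPM), *Prss34* higher in YS-Ex (20.1 against 11.02 CPM) and *Cd200r3* alike (308 against 304 CPM).

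*Cpa3*, the carboxypeptidase of mast cell granules, itself differed between the libraries, at 8656.2 CPM in Em-Ex against 16367.5 CPM for YS-Ex. Cells with at least 2000 CPM of *Cpa3* made up 79.1% (77.6 to 80.5) of Em-Ex and 96.7% (95.8 to 97.4) of YS-Ex. Near that limit, between 1000 and 4000 CPM, lay 307 cells of Em-Ex and 91 of YS-Ex. The makeup of the libraries by *Cpa3* thus moved with the comparison between them.

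Nearly all cells with *Mcpt8* or *Prss34* also carried much *Cpa3*. In Em-Ex 977 of the 1025 *Mcpt8* cells (95.3%, 93.8 to 96.5) had at least 2000 CPM of *Cpa3*, against 71.0% of the cells without *Mcpt8*. In YS-Ex it was 98.02% of the *Mcpt8* cells, against 96.4% of the others. For *Prss34* the shares were 94.8% against 77.8% in Em-Ex and 98.01% against 96.6% in YS-Ex. Of the cells with at least 1000 CPM of *Mcpt8*, all 43 in Em-Ex and all 6 in YS-Ex were at or above 2000 CPM of *Cpa3*. Of the cells with at least 1000 CPM of *Prss34*, all 3 from Em-Ex but 11 of 12 (91.7%) from YS-Ex were, and of the 36 Em-Ex cells with at least 3 UMIs of *Prss34* it was 88.9%. In YS-Ex, where nearly every cell had *Cpa3*, the difference between cells with and without *Mcpt8* or *Prss34* was small.

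For *Cd200r3* the contrast was wide. In Em-Ex 93.9% (92.8 to 94.8) of the *Cd200r3* cells had at least 2000 CPM of *Cpa3*, against 21.4% (18.3 to 24.9) of the cells without *Cd200r3*. In YS-Ex these shares were 98.9% and 78.7%. In Em-Ex cells at or above the *Cpa3* limit *Cd200r3* stood at 417 CPM, and in those below it at 30.8 CPM. In YS-Ex the values were 313 CPM and 72.0 CPM. Within the cells at or above the limit, *Cd200r3* was higher in Em-Ex than in YS-Ex, unlike over all cells.

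*Mcpt8* also followed the *Cpa3* limit, with 127 CPM in the 2430 Em-Ex cells at or above it and 11.6 CPM in the 641 cells below. In YS-Ex it stood at 36.8 CPM in 2018 cells and at 12.7 CPM in 69 cells. *Prss34* stood at 14.5 and 2.07 CPM in Em-Ex. In YS-Ex it stood at 18.5 CPM at or above the limit and at 63.6 CPM (48.5 to 81.8) below it. The higher *Prss34* value below the limit in YS-Ex came from 60 UMIs, of which 58 were in 1 cell.

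**Figure D2:**
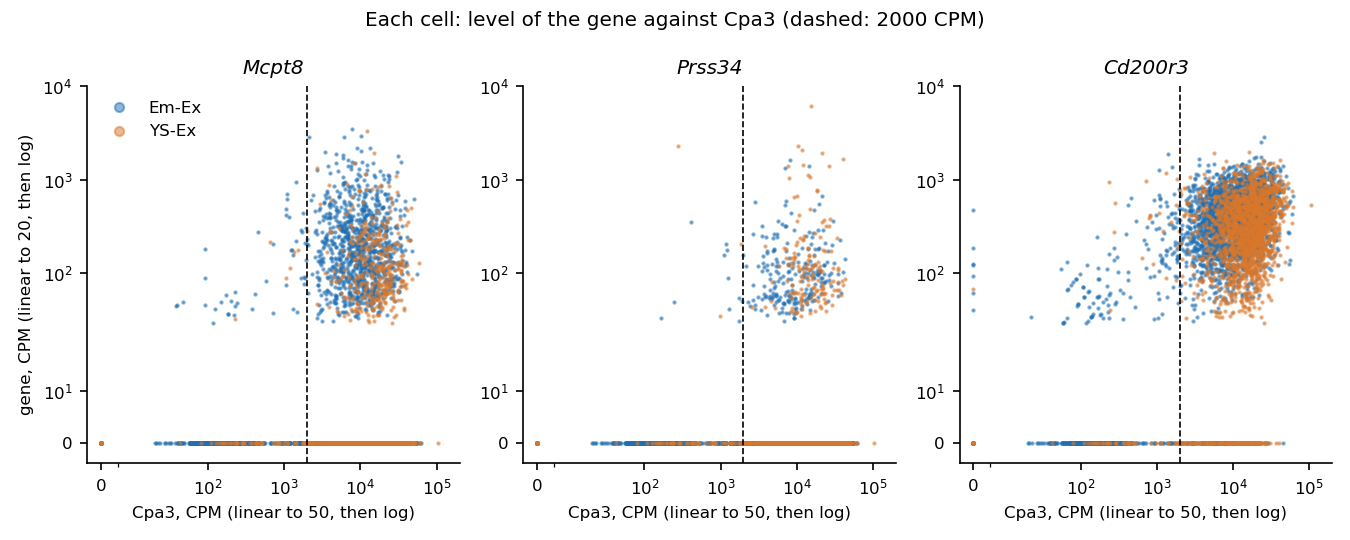
Each point is 1 cell, with *Cpa3* on the horizontal axis and *Mcpt8*, *Prss34* or *Cd200r3* on the vertical axis, both in CPM on scales that are linear near 0 and logarithmic above, for 3071 Em-Ex and 2087 YS-Ex cells. To the left of the dashed line at 2000 CPM of *Cpa3* lie 48 of the 1025 Em-Ex cells with *Mcpt8*, and 1 YS-Ex cell with 2299.5 CPM of *Prss34*.

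The 3 genes overlapped in the same cells to different degrees. In Em-Ex 570 cells (18.6%) held none of them, 1410 held 1, 979 held 2 and 112 (3.65%) held all 3. In YS-Ex 199 (9.54%) held none, 1447 held 1, 403 held 2 and 38 (1.82%) held all 3. Cells with all 3 were the deeper ones, with medians of 17878.5 UMIs in Em-Ex and 16856 in YS-Ex. Of the *Mcpt8* cells, 95.3% in Em-Ex and 96.0% in YS-Ex also held *Cd200r3*. At least 2000 CPM of *Cpa3* was found in 97.0% (95.8 to 97.9) of the Em-Ex cells with at least 2 of the genes and in 98.2% (96.5 to 99.2) of those of YS-Ex.

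*Mcpt8* and *Prss34* overlapped in part. Both were found in 117 Em-Ex cells, which is 11.4% of the *Mcpt8* cells and 50.2% of the *Prss34* cells, where the product of their shares gave 77.8 cells. In YS-Ex both were found in 38 cells, 10.7% and 25.2%, where the product gave 25.6. Deeper cells hold UMIs of more genes, and with cells thinned to 3000 UMIs the numbers were 21 against 11.9 in Em-Ex and 2 against 3.44 in YS-Ex. Among Em-Ex cells with at least 2000 CPM of *Cpa3* they were 109 against 88.8. Of 431 Em-Ex cells with at least 200 CPM of *Mcpt8* and 37 with at least 200 CPM of *Prss34*, 9 were the same, or 2.09% of the former and 24.3% of the latter, where the product of their shares gave 5.19. In YS-Ex 1 cell was shared by 97 and 34, or 1.03% and 2.94%, where the product gave 1.58.

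**Figure D3:**
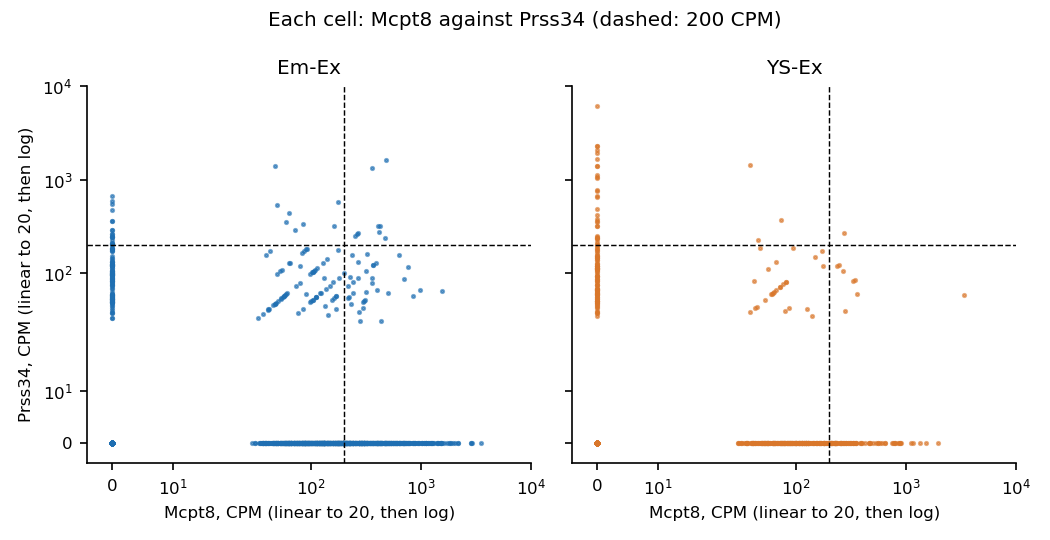
Each point is 1 cell, with *Mcpt8* (horizontal) and *Prss34* (vertical) in CPM on scales linear near 0 and logarithmic above, Em-Ex on the left and YS-Ex on the right. Of the cells beyond the dashed line of 200 CPM for either gene, 9 in Em-Ex and 1 in YS-Ex lie beyond both.

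Most of the cells richest in *Mcpt8* or *Prss34* had high levels of mast cell transcripts, with exceptions. The Em-Ex cell highest in *Mcpt8* (91 UMIs of 26276) had 799 CPM of *Cd200r3*, 7649.6 CPM of *Cpa3* and 16136.4 CPM of *Cma1*, a mast cell chymase, and no *Prss34*. The YS-Ex cell highest in *Prss34* had 543 CPM of *Cd200r3*, 15626.7 CPM of *Cpa3*, 46554.5 CPM of *Cma1* and no *Mcpt8*. The fourth highest Em-Ex cell for *Mcpt8* had 2092.1 CPM of *Cpa3*, 1942.6 CPM of *Cma1* and no *Tpsb2*, and the third highest YS-Ex cell for *Prss34* had little of all 3 and is described below. The YS-Ex cell at place 6 for *Mcpt8* had 29557.6 CPM of *Cpa3* but 367 CPM of *Cma1*, 551 CPM of *Tpsb2* and no *Kit*. The YS-Ex cell at place 7 had 6697.1 CPM of *Cpa3*, 896 CPM of *Cma1*, 171 CPM of *Tpsb2* and 597 CPM of *Kit*. None of the 10 Em-Ex cells highest in *Mcpt8* had a *Prss34* UMI. Of the Em-Ex cells highest in *Prss34*, those at places 1, 2 and 3 had 483, 47.6 and 356 CPM of *Mcpt8*, and those at places 4 and 5 had none. In the 431 Em-Ex cells with at least 200 CPM of *Mcpt8*, *Cma1* stood at 18770.3 CPM, the tryptase gene *Tpsb2* at 6843.8 CPM, *Mcpt4* at 1466.2 CPM and *Kit* at 322 CPM. *Cebpa* was found in 2 of these cells (0.464%, 0.0563 to 1.67) and *Itga2* in 0.928% of them, while *Il4* was found in 77.0%, against 66.2% of all cells. In the 97 YS-Ex cells of this kind *Itga2* was found in 11.3% (5.80 to 19.4), against 8.48% of all cells.

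Cells with *Mcpt8* or *Prss34* and little *Cpa3* were rare. Of 459 Em-Ex cells with at least 200 CPM of either gene, 18 (3.92%) were under 2000 CPM of *Cpa3*, and 2 of these also had under 1000 CPM of *Cma1*. Of 130 YS-Ex cells, 4 (3.08%) were under the *Cpa3* limit, and 1 of these had under 1000 CPM of *Cma1*. That YS-Ex cell, with 25223 UMIs, had 2299.5 CPM of *Prss34*, 278 CPM each of *Cd200r3* and *Cpa3*, 79.3 CPM of *Kit*, 198 CPM of *Cma1*, 119 CPM of *Tpsb2* and 317 CPM of *Il4*, and no *Mcpt8*. Of the 2 Em-Ex cells, 1 had 356 CPM of *Prss34*, 59.3 CPM of *Mcpt8*, 534 CPM of *Cd200r3*, 415 CPM of *Cpa3* and no *Kit*, and the other had 401 CPM of *Mcpt8*, 568 CPM of *Cma1* and 401 CPM of *Kit*. These cells are too few for a group to be described, and they were singled out after their values were seen. Since basophils also transcribe *Cpa3*, this search could not find basophil-like cells at or above the limit.

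To ask whether the 3 genes mark a group of their own, cells were clustered without them and without the rest of a 10-gene basophil list. The 11 clusters, numbered by size from 1193 to 25 cells, were described by their leading genes. Clusters 1 to 5, 7 and 8 had 9071.8 to 19784.9 CPM of *Cpa3* and together held 99.2% of the *Mcpt8* UMIs, 99.6% of the *Prss34* UMIs and 99.0% of the *Cd200r3* UMIs. Because the libraries took different shares of the clusters, levels are given within each library. In Em-Ex *Mcpt8* was highest in cluster 8 (*Calca*, *Tnfrsf9*), at 215 CPM (185 to 249), and in cluster 4 (*Hapln1*, *Tpsab1*), at 192 CPM (182 to 203), with overlapping intervals, followed by cluster 2 (the dividing cells with *Mki67*) at 133 CPM (126 to 140). In YS-Ex it was highest in cluster 4, at 76.1 CPM (64.2 to 89.7), and in cluster 8, at 62.9 CPM (48.4 to 80.3), again with overlapping intervals. Among the *Cpa3* clusters it was lowest in clusters 3 (*Ccr2*, *Layn*) and 5 (*Cd3g*, *Itga4*), at 49.1 and 59.2 CPM in Em-Ex, against 16.5 and 16.01 CPM for YS-Ex.

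For *Prss34* the order differed by library. In Em-Ex clusters 8, 5, 2 and 4 had overlapping intervals, with levels from 25.7 CPM (16.1 to 39.0) in cluster 8, where 15 of the 22 UMIs were in 1 cell, to 17.6 CPM (14.6 to 21.1) in cluster 4. In YS-Ex cluster 4 was highest, at 75.0 CPM (63.2 to 88.5), followed by cluster 2 at 35.1 CPM (30.1 to 40.8). Without the cell with the most *Prss34* UMIs in each cluster and library, a choice made after seeing the data, YS-Ex stood at 44.9 CPM (35.8 to 55.6) in cluster 4, where that cell held 57 of 141 UMIs, and at 23.6 CPM (19.5 to 28.3) in cluster 2, where it held 58 of 175. Cluster 8 of Em-Ex then stood at 8.30 CPM (3.34 to 17.1). *Cd200r3* was highest in cluster 1 (*Stmn2*, *Rprm*, *Tpsb2*) and cluster 8, with overlapping intervals, at 592 and 561 CPM in Em-Ex, against 530 and 487 CPM for YS-Ex. Among the *Cpa3* clusters it was lowest in clusters 5 and 2, at 278 and 281 CPM in Em-Ex, against 145 and 153 CPM for YS-Ex.

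Cluster 6 (501 cells, led by *Hoxa9*, *Mpo*, *Flt3* and *Prtn3*, 483 of them from Em-Ex) gives the level of these transcripts in cells of another kind. *Mcpt8* was found in 5.39% of its cells, *Prss34* in 0.798% and *Cd200r3* in 17.6%, at a median of 20552 UMIs per cell. The levels there were 3.43, 0.392 and 17.04 CPM. The 1193 cells of cluster 1, with 27.7%, 4.11% and 97.7%, had a median of 9112 UMIs. In cluster 11 (*Hbb-bs*, 25 cells, median of 22250 UMIs) *Cd200r3* was found in 4 cells (16%). Shares near these, such as 23.4% for *Cd200r3* and 7.49% for *Mcpt8* in Em-Ex cells under 2000 CPM of *Cpa3*, were not read as expression, because free RNA in the droplets was not measured.

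No cluster reached 2-fold for all 3 genes. A cluster at 2-fold or more of the other cells for all 3 occurred 0 times with 11 clusters, and 0 times in each of 6 other settings with 8 to 37 clusters, 1 of which allowed the 3 genes and the basophil list among the genes used. With 11 clusters, the most genes of the 10-gene list at 2-fold in a cluster was 2, which were *Cd200r3* and *Il3ra*, the IL-3 receptor subunit, in cluster 1, *Mcpt8* and *Prss34* in cluster 4, and *Itga2* and *Ifitm1* in cluster 8. These folds are over both libraries, and for *Prss34* rest in part on 1 cell. In the other settings the most genes of the list at 2-fold was 2 or 3, and with 30 principal components 1 cluster of 905 cells had *Mcpt8*, *Cd200r3* and *Il3ra* at 2-fold. The share of all genes at 2-fold in these clusters was not counted, so these counts are not read as few or many. The smallest clusters held 20 to 25 cells, so a rarer group would not have formed a cluster of its own.

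Between libraries, *Mcpt8* was higher in Em-Ex within each of the 7 *Cpa3* clusters. The ratio ran from 2.17 (1.61 to 2.97) in cluster 7 (*Mcpt1*, *Mcpt2*) to 3.70 (2.83 to 4.87) in cluster 5. In cluster 2 of YS-Ex 1 cell held 112 of the 264 *Mcpt8* UMIs, and *Mcpt8* ratios within clusters were not taken without such cells. In cluster 4 the levels were 192 CPM for Em-Ex and 76.1 CPM for YS-Ex. With YS-Ex weighted to the cluster makeup of Em-Ex, as chosen after seeing the data, the ratio was 2.55. The difference in *Mcpt8* was thus also there within clusters, at ratios on both sides of that over all cells. *Cpa3* went the other way, with ratios from 0.628 to 0.968.

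*Cd200r3*, alike over all cells, was higher in Em-Ex within most of these clusters. The ratio was 1.92 (1.73 to 2.12) in cluster 5, 1.84 (1.70 to 1.99) in cluster 2, 1.54 in cluster 3, 1.47 in cluster 4, 1.15 in cluster 8 and 1.12 (1.06 to 1.17) in cluster 1. In cluster 7 it was 1.02 (0.916 to 1.13), within counting error of no difference. Weighted to the cluster makeup of Em-Ex the ratio was 1.39. Em-Ex held 483 of the 501 cells of cluster 6, where *Cd200r3* was low.

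*Prss34* did not go 1 way. It was lower in Em-Ex in cluster 4, at 17.6 against 75.0 CPM (ratio 0.235, 0.182 to 0.301), in cluster 2 (0.532, 0.432 to 0.655) and in cluster 1 (0.448, 0.299 to 0.661). In clusters 3 and 7 the ratios of 0.638 and 0.558 and in cluster 8 the ratio of 1.75 had intervals that held 1. In cluster 5 it was higher in Em-Ex, at 19.4 against 5.86 CPM (ratio 3.31, 2.10 to 5.33), with 58 UMIs in 32 cells against 30 UMIs in 20 cells. Without the richest cell of each library in each cluster, the ratio was 0.298 (0.219 to 0.406) in cluster 4, 0.673 (0.529 to 0.859) in cluster 2, 0.557 (0.355 to 0.861) in cluster 1, 0.931 (0.295 to 2.81) in cluster 8 and 3.50 (2.13 to 5.89) in cluster 5. The direction for *Prss34* therefore varied with the cluster.

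**Figure D4:**
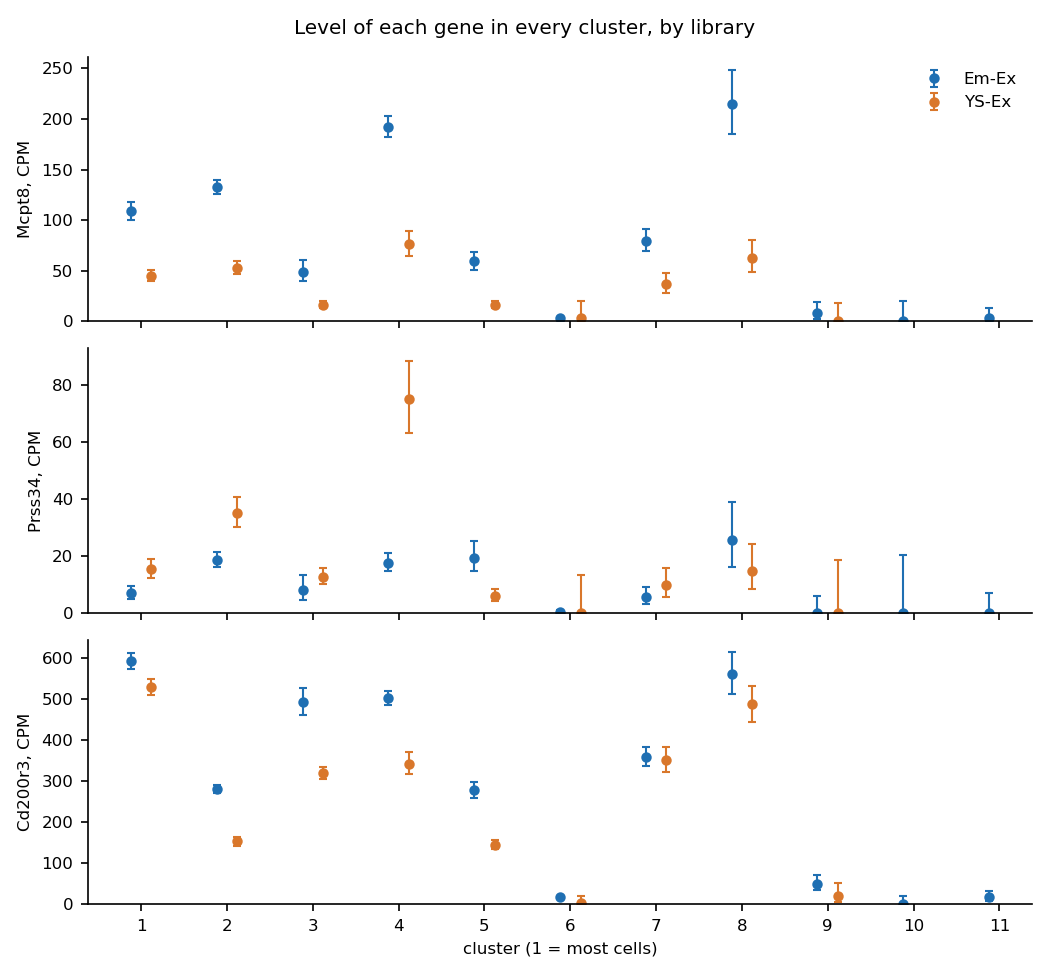
Points give the level of *Mcpt8*, *Prss34* and *Cd200r3* (CPM) in each of the 11 clusters, by library, with 95% counting intervals, for groups of at least 14 cells. *Mcpt8* lies higher in Em-Ex in clusters 1 to 5, 7 and 8, *Prss34* stands out in cluster 4 of YS-Ex at 75.0 CPM, and all 3 genes lie low in clusters 6 and 9 to 11.

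Other genes were compared between cells with at least 2 of the 3 genes and the remaining cells of the same library. In Em-Ex (1091 against 1980 cells) 5 of 14 mast cell genes were at least 2-fold higher, beside 1.27% of all 11447 genes, and 1 was lower, beside 10.2% of all genes. The median log2 ratio was 0.82 for the mast cell list and -0.14 for all genes. The 5 were *Cma1* (17147.5 against 8484.1 CPM), *Mcpt4* (1126.2 against 504 CPM), *Tpsab1* (338 against 117 CPM), *Slc6a4*, a serotonin transporter (6.81 against 2.36 CPM), and *Gzmb*, a granzyme (230 against 101 CPM). *Mcpt1*, a chymase of mucosal mast cells, was the lower one, at 195 against 675 CPM.

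None of the 7 further basophil genes with enough UMIs was 2-fold higher in those Em-Ex cells, beside 1.27% of all genes. A count of 0 of 7 lies near that share. The median log2 ratio of the 7 was 0.42, against -0.14 for all genes. *Cd200r1* stood at 102 against 57.3 CPM, *Cyp11a1* at 1267.2 against 772 CPM and *Il4* at 140.0 against 97.7 CPM. *Cebpa*, found mostly in cells under 2000 CPM of *Cpa3*, was lower, at 0.688 against 8.56 CPM. *Itga2* stood at 0.813 against 0.934 CPM with a ratio of 0.87 (0.408 to 1.76). Of the genes of other cells, all 6 neutrophil progenitor genes, 5 of 9 macrophage genes and 5 of 7 erythroid genes were lower, beside 10.2% of all genes. These cells had a median of 13631 UMIs, against 12341 for all Em-Ex cells, and the part of depth was not tested.

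Restricted to cells with at least 2000 CPM of *Cpa3* on both sides (1058 against 1372 in Em-Ex), 0 of 14 mast cell genes were 2-fold higher and 2 were lower, beside 0.671% and 1.38% of 10872 genes. The median was 0.07 for the mast cell list, -0.19 for 6 basophil genes and 0.02 for all genes. *Mcpt1* stood at 186 against 1075.0 CPM, *Kit* at 321 against 349 CPM and *Tpsb2* at 6910.4 against 6355.5 CPM. *Mcpt1* was thus at 0.173 times the level of the other cells, while *Kit* and *Tpsb2* lay near theirs, at 0.919 and 1.09 times. Of the genes of other cells, 2 of 6 neutrophil progenitor genes, 0 of 9 macrophage genes and 3 of 6 erythroid genes were lower here.

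In YS-Ex (441 against 1646 cells) 0 of 14 mast cell genes and 0 of 6 basophil genes were 2-fold higher, beside 0.575% of 10957 genes, and none of either list was lower, beside 2.21%. The median log2 ratio was 0.31 for the mast cell list and 0.02 for the basophil list. Within cells with at least 2000 CPM of *Cpa3* (433 against 1585) 0 mast cell genes were higher and 1 was lower, beside 0.798% and 1.41% of 10907 genes, and 0 basophil genes passed in either direction. All 4 neutrophil progenitor genes and 6 of 9 macrophage genes were lower in the YS-Ex cells with at least 2 of the genes. For Em-Ex the count of 0 further basophil genes depended on the choice of cells, and was 1 of 7, *Itga2*, in the 112 cells with all 3 genes, beside 1.76% of all genes, and 2 of 7, *Cyp11a1* and *Cd200r1*, in the 1473 cells with at least 5 UMIs summed over them, beside 3.21%. By the same choice 9 of 14 mast cell genes were 2-fold higher in Em-Ex, while YS-Ex had 3 of 14, beside 0.684% of all its genes.

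Among genes with at least 50 CPM in those cells or in the others, the 10 with the largest folds were taken in each library. In Em-Ex they were *Hapln1*, a hyaluronan link protein (95.4 against 25.0 CPM, 3.82-fold, 3.49 to 4.19), *Tpsab1* (2.90-fold), the paired immunoglobulin-like receptors *Pilrb2* (2.64-fold), *Pilra* (2.60-fold) and *Pilrb1* (2.48-fold), the amino acid transporter *Slc7a5* (2.44-fold), *Hdc*, which makes histamine (2.41-fold), *Rcn3*, *Gzmb* and *Ddc*. In YS-Ex they were *Tnfrsf9* (2.29-fold, 2.03 to 2.60), *Slc7a5* (2.21-fold), *Fbp2* (2.10-fold), *Pilra* (1.80-fold), *Ddc*, *Pilrb2* (1.69-fold), *Tpsab1* (1.67-fold), *Serpinb1a*, *Car8* and *Ctla2b*. *Tpsab1*, *Pilra*, *Pilrb2*, *Slc7a5* and *Ddc* stood in both sets of 10. Among *Cpa3*-rich cells of Em-Ex these folds were smaller, at 2.32 for *Hapln1* (97.6 against 42.1 CPM), 1.88 for *Slc7a5*, 1.75 for *Tpsab1*, 1.60 for *Pilrb2* and 1.59 for *Pilra*, and *Pilrb1*, *Hdc*, *Gzmb* and *Ddc* were no longer among the 10 largest.

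The same was done for cells with at least 200 CPM of *Mcpt8* against other cells with at least 2000 CPM of *Cpa3*, a comparison and a choice of genes made after values were seen. In Em-Ex *Hapln1* was 2.68-fold (2.45 to 2.92), *Car2* 2.37-fold and *Pilrb2* 1.92-fold higher. In YS-Ex the chemokine genes *Ccl3* (176 against 43.4 CPM) and *Ccl6* (60.0 against 14.9 CPM) and the receptors *Pilrb2* (146 against 45.5 CPM) and *Pilra* (95.8 against 31.7 CPM) were higher. In the same 95 YS-Ex cells, 3 of 8 macrophage genes were at least 2-fold higher, *Csf1r*, *Adgre1* and *Cd68*, and 3 lower, *C1qb*, *C1qc* and *Fcgr1*, and 3 of 14 mast cell genes were higher, *Mcpt4*, *Slc6a4* and *Mrgprb2*, beside 4.09% of all genes higher and 5.99% lower. *Ccl3* was also a leading gene of cluster 8, which had 12115.6 CPM of *Cpa3* in YS-Ex. Over both libraries, 3 of 9 macrophage genes were at least 2-fold higher there, again *Csf1r*, *Adgre1* and *Cd68*. *Slc6a4* and *Mrgprb2* reached that fold there too, and *Mcpt4* did not. In cluster 9, at 464.9 CPM of *Cpa3* in YS-Ex, all 9 macrophage genes reached it. The part of cluster 8 cells and of macrophage transcripts in the chemokine values was not tested.

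Over whole libraries, 9 of the 10 basophil genes were found in both. Of these 1 was at least 2-fold higher in Em-Ex, *Mcpt8* itself, beside 5.23% of all genes, and 1 was lower, beside 10.3%, which was *Itga2* at 0.889 against 7.29 CPM (ratio 0.122, 0.0838 to 0.173). The list's median log2 ratio was -0.30. *Il4* stood at 114 CPM against 183 CPM, *Cyp11a1*, a steroid-producing enzyme, at 957 against 1284.1 CPM and *Cd200r1* at 73.9 against 88.4 CPM. *Il3ra* stood at 49.8 against 58.1 CPM and *Ifitm1* at 6791.5 against 8362.6 CPM. *Cebpa*, left out of these counts, stood at 5.61 CPM in Em-Ex and was listed at 0 in YS-Ex.

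The shares of all genes beside the lists that follow are again 5.23% higher and 10.3% lower. Of the genes shared by basophils and mast cells, 0 of 8 were higher and 2 lower, *Il1rl1*, the receptor for IL-33 (330 against 898 CPM), and *Cd69* (ratio 0.485), with a median of -0.74, and *Cpa3*, also on this list, had a ratio of 0.529. Of the mast cell list 1 of 14 was higher, *Mcpt1*, and 1 lower, *Kit* (262 against 963 CPM), with a median of -0.20. The granule protease list repeats genes of the lists above, *Mcpt1* among them. Of its 11 genes found in both libraries, 2 were higher, *Mcpt1* (496 against 163 CPM) and *Prtn3* (188 against 22.6 CPM), and none lower. *Tpsab1*, which RefSeq lists as a transcribed pseudogene, was 1.93-fold (1.85 to 2.02) higher in Em-Ex and *Tpsb2* stood at 4861.0 against 7926.2 CPM. *Mcpt8* and *Mcpt1*, on the same stretch of chromosome 14, were both above 2-fold, and of the genes between them *Mcpt2* stood at 578 against 315 CPM and *Mcpt4* at 737 against 886 CPM.

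The partners of the *Cd200r3* receptor were present in both libraries. *Tyrobp*, which encodes the adaptor DAP12, stood at 2364.0 CPM in Em-Ex, against 2578.2 CPM for YS-Ex, and was found in 98.3% and 99.9% of cells. *Fcer1g*, another adaptor, stood at 2144.2 and 2622.0 CPM, and *Cd200r4*, a related receptor, at 162 and 142 CPM. None of the 14 receptor signaling genes measured reached 2-fold in either direction, and their median was -0.27. *Fcer1a*, the chain of the receptor that binds IgE, was found in 4.95% of the cells of Em-Ex and 5.51% of those of YS-Ex, and *Ms4a2*, its signaling chain, in 28.5% and 37.9%. Of the cells with at least 200 CPM of *Prss34*, *Ms4a2* was found in 29.7% of 37 in Em-Ex and in 8.82% (1.86 to 23.7) of 34 in YS-Ex.

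Of 10 transcription factors found in both libraries, *Irf8* was 2-fold higher or more in Em-Ex (16.0 against 4.51 CPM) and *Runx1* lower (61.2 against 179 CPM), with *Gata2*, a factor of mast cells and basophils, at 405 and 708 CPM. Markers of other cells also moved with the libraries. Of the genes found in both libraries, 5 of 9 macrophage genes, 2 of 4 neutrophil progenitor genes and 2 of 5 erythroid genes were at least 2-fold higher in Em-Ex and 2 neutrophil progenitor genes lower, beside the same 5.23% and 10.3%. Of 3 eosinophil genes 2 were lower, and of 2 megakaryocyte genes none passed. Summed over its list, the level was 264 CPM in Em-Ex against 122 CPM for the macrophage genes, 419 against 291 CPM for the neutrophil progenitor genes, 830 against 329 CPM for the erythroid genes, 15.6 against 28.6 CPM for the eosinophil genes and 47.8 against 63.5 CPM for the megakaryocyte genes. *Elane*, *Ctsg*, *Alas2*, *Gp9* and *Vwf* were listed at 0 in YS-Ex and are left out of these counts. Their part in the library differences of *Mcpt8* and *Prss34* was not tested.

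The genes most like each in pattern were found by Pearson r of log-normalized values across the cells of a library, which share depth and library, as a description. *Cd200r3* in Em-Ex (3071 cells) was most like *Cma1* (0.72), *Srgn* (0.71), *Cpa3* (0.71), *Cyp11a1* (0.71) and *Fcer1g* (0.70). In YS-Ex (2087 cells) it was most like *Fxyd5* (0.49), *Cyp11a1* (0.45), *Tpsb2* (0.44), *Cd200r4* (0.44) and *Tyrobp* (0.43). Among Em-Ex cells with at least 2000 CPM of *Cpa3*, r with *Cma1* was 0.41 and with *Cpa3* 0.29. The pattern of *Cd200r3* followed genes of the *Cpa3* cells in both libraries, less closely once the *Cpa3*-low cells were left out.

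*Mcpt8* in Em-Ex was most like *Hdc* (0.36), *Serpinb1a* (0.34), *Cma1* (0.33), *Tpsab1* (0.33) and *Capg* (0.33), and in YS-Ex most like *Ctla2a*, *Pilrb2*, *Fxyd5*, *Pilra* and *Serpinb1a*, with r from 0.19 to 0.20. For *Prss34* the highest r was 0.16 in Em-Ex, with *Atp5f1*, followed by *Tpsg1*, *Sucnr1*, *Oaf* and *Slc45a3*. In YS-Ex it was 0.14, with *Dtwd2*, followed by *Atp5f1*, *Nt5dc2*, *Atp6v1g2* and *2010109A12Rik*. Values this low in sparse counts are not a finding. Between *Mcpt8* and *Prss34* r was 0.05 in Em-Ex and -0.0015 in YS-Ex, and between *Mcpt8* and *Cd200r3* it was 0.29 in Em-Ex.

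Sequence shared with other genes was counted because reads from it cannot be placed. Of the 50-base stretches of their annotated transcripts, 0 of 998 of *Mcpt8* and 0 of 1171 of *Prss34* occurred in another gene, and 162 of 6021 (2.69%) of *Cd200r3* did, none of them in *Cd200r1*, *Cd200r2* or *Cd200r4*. Within 250 kb, 10 of 19 protein-coding neighbours of *Mcpt8*, 10 of 20 of *Prss34* and 7 of 9 of *Cd200r3* were in the table. *Mcpt4* lies 19.9 kb from *Mcpt8*, *Tpsb2* 66.1 kb from *Prss34* and *Cd200r4* 104 kb from *Cd200r3*. *Cd200r2*, at 27.8 kb, was not in the table.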

How the data were processed

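Single-cell RNA sequencing (10x Chromium) measured 1 library each of sorted Em-Ex and YS-Ex cells. The authors ran Cell Ranger 2.0.1 (bcl2fastq 2.19.1.403 and build mm10, per the submitters' processing notes), and their deposited table holds raw UMI counts of both libraries. The barcode names gave the library, and 0 columns were unmapped. Cells with 1000 to 5000 genes and at most 5% mitochondrial UMIs (13 genes) were kept, which left 42752370 UMIs in Em-Ex (4120 to 38114 per cell) and 27031627 for YS-Ex (3302 to 34107). No doublets were called or removed beyond these limits.

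The genes and all lists were chosen with earlier results of these data known. Intervals were exact Poisson (levels), Clopper-Pearson (shares) and conditional binomial (ratios), from scipy 1.17.1, with a prior count of 0.5 for log2 ratios, and folds between cells of 1 library needed 20 UMIs. Since cells are not replicates, no test was run. Named genes were the 3 genes, *Cpa3*, genes of the lists, the 5 with the highest Pearson r to each, the 10 largest folds (at least 50 CPM) in cells with at least 2 of the 3, and the leading genes of clusters. Other names were chosen after values were seen. Clusters came from 2000 variable genes without the basophil list, with mutual nearest neighbor correction of the libraries (k = 20, sigma = 0.1, in numpy 2.4.6 and not scran), 100 principal components and leidenalg 0.10.2 at resolution 1 (in place of pdfCluster), and can differ from those of the study. The statistics were tested on simulated data. The values of 1 listed gene are not reported here.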

Additional observations from a re-analysis of the deposited data

Results flagged for a closer look

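Barcodes outside the cell limits, which no comparison above used, also carried the 3 genes above the level that a count of 0 allows (3 UMIs, or 0.510 CPM for Em-Ex and 0.398 CPM for YS-Ex). In the 433 Em-Ex barcodes, 81.5% of which were over the mitochondrial limit, *Mcpt8* stood at 52.05 CPM (46.4 to 58.2), *Prss34* at 4.93 CPM (3.30 to 7.09) and *Cd200r3* at 202.9 CPM (192 to 215). In the 950 YS-Ex barcodes, 96.5% of which were over that limit, *Mcpt8* stood at 19.78 CPM (16.7 to 23.2), *Prss34* at 13.8 CPM (11.3 to 16.7) and *Cd200r3* at 389.9 CPM (376 to 404). *Mcpt8* and *Prss34* were lower there than in the cells kept, in both libraries, whereas *Cd200r3* was lower in Em-Ex and higher in YS-Ex. *Cpa3* stood at 5329.1 and 14213.1 CPM in these barcodes.

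In cluster 5 *Prss34* was 3.31-fold (2.10 to 5.33) higher in Em-Ex, in the opposite direction to clusters 1, 2 and 4, whose intervals lay below 1, also without the richest cell of each library in each of these clusters. It stands here because the library difference goes opposite ways in clusters of the same libraries. The difference between clusters was not tested, since each library is 1 sample.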

How the results depend on the processing

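No paired analysis was possible because each tissue has 1 library. For the same reason no replicate could be left out. The values below are the chief ones that moved by more than their counting interval, and the cause was not tested. The ratios of *Mcpt8* and *Prss34* kept their direction under every alternative run. The log2 ratio of *Mcpt8*, 1.396 as reported, was 1.54 as a mean over cells, 1.56 thinned to 3000 UMIs, 1.79 within cells of at least 2000 CPM of *Cpa3* and 1.72 without the 10 richest cells. That of *Prss34*, -0.86, was -1.45 thinned to 2000 UMIs, -0.35 within *Cpa3*-rich cells, -0.35 without the 10 richest cells and -1.17 weighted by cluster. That of *Cd200r3*, 0.02, was -0.13 with every barcode, -0.077 with a mitochondrial limit of 10%, -0.023 without an upper limit on genes, -0.023 without the 10 most abundant genes, 0.069 scaled by the median gene ratio, 0.42 within *Cpa3*-rich cells and 0.47 weighted by cluster, so its sign over all cells is not fixed. The share of cells with at least 2 of the genes that reached the *Cpa3* limit was 99.45% and 88.36% in Em-Ex with limits of 1000 and 4000 CPM and 95.72% with every barcode, and in YS-Ex 99.55%, 96.37% and, thinned, 99.23%. For single genes this share ran from 84.55% to 99.44%. Cells with *Mcpt8* and *Prss34* in YS-Ex went from 1.48 (1.05 to 2.03) to 0.581 times the product of shares when thinned (2 cells), from above to below it. Thinned, the richest 1% of cells held 56.8% and 72.7% of the *Prss34* UMIs and 5.48% and 5.45% of the *Cd200r3* UMIs, for Em-Ex and YS-Ex in turn. At resolutions 2 and 4 the *Cpa3* clusters held 99.44% of the *Mcpt8* and 99.33% of the *Cd200r3* UMIs. In Em-Ex, basophil genes at 2-fold were 1 with all 3 genes required and 2 with at least 5 UMIs, and mast cell genes were 0 with all 3, 9 with at least 5 UMIs and 0 against *Cpa3*-rich cells. In YS-Ex they were 3 with at least 5 UMIs. Of the 5 genes most like *Prss34*, 2 were shared by Spearman's rho and 0 after thinning, in each library, and for YS-Ex 2 of 5 were shared for *Mcpt8* by rho and 3 of 5 for *Cd200r3* by rho or after thinning. Leaving out the 35 barcodes found in both libraries moved none of the library ratios, *Cpa3* shares, cells with 2 genes or list counts, and was not run for the other results.

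Depth limits the rest. A gene must reach 30 barcodes to be listed, and *Prss34* rests on 471 and 542 UMIs. Weighting by cluster, thinning for the richest 1%, leaving out the richest cells, and comparing other genes only among or against *Cpa3*-rich cells were chosen after seeing the data.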
